A study of Mus musculus and Homo sapiens with 12 samples.

Results

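The hAT-Charlie elements are DNA transposons, and they were followed here through both cell lines of the study. Every repeat element that the deposited annotation places in class DNA and family hAT-Charlie was taken as a member. In mouse embryonic stem (mES) cells this gave 98522 loci in 81 subfamilies, out of 3158171 annotated elements. In K-562, a human chronic myeloid leukaemia line, it gave 243921 loci in 83 subfamilies, out of 3919868 elements. RNA retained on chromatin (chromatin-associated RNA, caRNA) had been precipitated with an antibody against 5-methylcytosine (m5C) and sequenced (meRIP–seq). The groups were mES cells with genotype WT or Tet2-KO and K-562 cells with genotype WT or TET2-KO, with 3 libraries each. TET2 oxidises methylated cytosine, and comparing KO with WT asks which m5C-bound caRNAs differ when it is lost. The mES cells were grown in serum with LIF and the inhibitors CHIR99021 and PD0325901 and were cleared of feeder cells, and K-562 cells were grown in RPMI-1640 with serum. The paper lists WT and KO cells of both lines as gifts from other laboratories, and also lists WT K-562 cells from a cell bank. Which WT K-562 cells were sequenced, and the number of clones behind each group, is not given. One label field of the K-562 KO libraries reads K563, but their titles read K562. The paper describes its genome-wide data as coming from 3 biological replicates, but the labels do not say whether these were separate cultures. The p-values therefore measure the spread between these libraries. Only the precipitated fraction was used, without input or spike-ins, so a difference in RNA level cannot be told apart from one in m5C enrichment, and every value is relative to the remaining repeats. The tables hold repeats only, so Tet2 itself and markers of the cell types were not analysed here.

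hAT elements move by cutting and pasting. A transposase recognises short inverted repeats at both ends of the element, cuts it out and inserts it elsewhere, leaving a duplicated target site. Some Charlie elements carried the transposase gene, whereas most elements called MER, and the rodent URR1 elements, are short relatives that kept the ends and lost the gene. The Charlie and MER groups below go by name, not by presence of the gene. In mammals nearly all are fossils with no known activity, so RNA over them can be part of the RNA of a gene that contains them.

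The family name was checked against sequence. The letters TTCTCAA, or TTGAGAA on the other strand, are part of the terminal inverted repeat of many Charlie elements. Among loci of 180 to 220 bases, they occurred in 46.5% of 24580 mouse hAT-Charlie loci and in 5.06% of 5341 other DNA transposons. In human they occurred in 23.1% of 42052 and 4.98% of 18129. Loci with counts held them as often as the family did, at 43.8% of 696 in mES cells and 23.6% of 759 in K-562. A match describes the letters only.

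The loci that carried the results below are shown first, 5′ to 3′ on the strand of the element, with these letters in capitals where present. Loci over 300 bases are cut to their first 300, and loci joined from fragments may include inserted sequence. In mES cells they were a URR1B copy whose 4 identical sequences held the largest counts, a URR1A copy, and the RCHARR1 and Charlie12_Rodent loci with the highest counts of their subfamilies. Builds are mm10 for mouse and hg38 for human.
URR1B, mm10 chr4:147673274-147673364, minus strand: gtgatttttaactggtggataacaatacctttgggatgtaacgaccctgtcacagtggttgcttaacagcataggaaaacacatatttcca
URR1A, mm10 chr17:36118115-36118316, minus strand: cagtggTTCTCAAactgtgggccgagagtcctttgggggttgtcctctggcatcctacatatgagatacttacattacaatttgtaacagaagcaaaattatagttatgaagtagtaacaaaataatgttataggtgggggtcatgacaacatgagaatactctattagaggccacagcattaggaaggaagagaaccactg
RCHARR1, mm10 chr16:13750446-13750745, plus strand: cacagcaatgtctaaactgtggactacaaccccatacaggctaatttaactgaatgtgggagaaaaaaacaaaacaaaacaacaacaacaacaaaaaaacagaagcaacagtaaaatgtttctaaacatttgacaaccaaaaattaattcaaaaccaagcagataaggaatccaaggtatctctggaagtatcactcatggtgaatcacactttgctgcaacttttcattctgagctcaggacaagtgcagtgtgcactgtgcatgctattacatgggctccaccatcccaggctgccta
Charlie12_Rodent, mm10 chr14:56138487-56138786, minus strand: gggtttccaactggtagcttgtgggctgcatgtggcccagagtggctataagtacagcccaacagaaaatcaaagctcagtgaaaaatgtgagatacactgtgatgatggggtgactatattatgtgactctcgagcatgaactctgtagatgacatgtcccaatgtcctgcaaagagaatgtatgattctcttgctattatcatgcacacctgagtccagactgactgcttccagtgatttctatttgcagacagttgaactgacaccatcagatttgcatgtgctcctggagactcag
In K-562 they were the highest copy of the second MER1A set described below, the Charlie2b locus with the lowest p-value, and MER20, MER58A and MER5A copies from sets with high counts in KO libraries.
MER1A, hg38 chr19:205208-205507, minus strand: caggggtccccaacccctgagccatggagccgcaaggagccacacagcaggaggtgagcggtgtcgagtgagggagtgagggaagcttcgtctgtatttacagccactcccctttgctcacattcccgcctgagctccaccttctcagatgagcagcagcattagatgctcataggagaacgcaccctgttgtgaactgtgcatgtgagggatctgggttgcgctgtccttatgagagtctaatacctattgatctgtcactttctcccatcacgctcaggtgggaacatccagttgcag
Charlie2b, hg38 chr5:54270104-54270403, minus strand: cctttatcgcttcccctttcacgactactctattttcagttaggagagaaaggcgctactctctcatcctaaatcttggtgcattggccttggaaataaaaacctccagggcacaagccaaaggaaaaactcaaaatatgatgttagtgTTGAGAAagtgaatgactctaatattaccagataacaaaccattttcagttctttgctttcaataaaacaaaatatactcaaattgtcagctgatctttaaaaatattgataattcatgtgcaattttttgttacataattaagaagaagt
MER20, hg38 chr19:54459142-54459248, plus strand: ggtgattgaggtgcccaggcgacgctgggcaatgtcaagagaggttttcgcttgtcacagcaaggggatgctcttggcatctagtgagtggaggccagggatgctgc
MER58A, hg38 chr16:16519544-16519759, plus strand: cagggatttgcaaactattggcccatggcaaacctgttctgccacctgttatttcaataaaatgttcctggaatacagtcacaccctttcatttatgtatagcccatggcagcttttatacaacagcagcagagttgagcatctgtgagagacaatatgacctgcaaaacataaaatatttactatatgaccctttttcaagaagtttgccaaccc
MER5A, hg38 chr5:86279095-86279225, plus strand: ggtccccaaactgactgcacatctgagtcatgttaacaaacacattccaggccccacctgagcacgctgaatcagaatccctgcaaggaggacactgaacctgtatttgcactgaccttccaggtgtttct

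Few of these elements were counted. The libraries held 1532029 to 3318565 estimated counts over DNA, LINE, LTR and SINE elements in mES cells and 498145 to 827341 in K-562, with higher totals in WT in mES cells and in KO in K-562. In mES cells 3399 hAT-Charlie loci (3.45% of members) had counts, against 10.1% of all elements. In K-562 they were 6295 loci (2.58%), against 8.06% of all elements. The median counted locus held 1.0 count over the 6 mES libraries and 1.2 over the 6 K-562 libraries. Only 98 mES and 617 K-562 loci reached 10 counts.

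Most loci appeared in a single library. In mES cells 2740 of the 3399 loci were counted in 1 library only, and 19 were counted in all 6. In K-562 the numbers were 4944 of 6295, and 47. Loci with at least 90% of their counts in 1 library held 70.3% of all hAT-Charlie counts in mES cells and 58.2% in K-562. Over the DNA, LINE, LTR and SINE elements together, such loci held 7.11% and 33.5% of the counts. Among loci with at least 50 counts, the share was 22 of 32 hAT-Charlie loci in mES cells and 194 of 289 in K-562, against 14.3% and 48.7% of all such loci.

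Near-identical copies held many of the counts. Loci with at least 10 counts were joined into sets where copies of a subfamily agreed at 95% or more of their bases. In K-562, 422 of the 617 loci fell into 128 sets of 2 or more copies, which held 76.7% of all hAT-Charlie counts. In mES cells 25 of 98 loci fell into 9 sets with 31.1%. All copies were identical in 82 of the 128 K-562 sets and in 4 of the 9 mES sets. Reads that match several copies equally cannot be placed on 1 locus, and the deposited counts are fractional. Values of single copies within a set are therefore uncertain, and set sums are given beside them. Elements on alternate contigs of hg38 held 12.7% to 17.4% of the hAT-Charlie counts in WT and 25.5% to 27.4% in KO libraries of K-562.

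Few copy sets held a large part of the family's counts in a library. In mES cells the highest set held 17.7% (URR1B), 18.9% (URR1A) and 11.9% (URR1A) of hAT-Charlie counts in WT and 10.4% (RCHARR1), 47.5% (URR1B) and 35.1% (URR1B) in Tet2-KO replicates 1 to 3. In K-562 the first MER1A set was the highest in every WT library, at 25.5%, 28.1% and 23.4%. It was also the highest in KO replicate 1, at 6.82%, whereas Charlie30b led KO replicate 2 with 8.54% and MER5A led KO replicate 3 with 6.80%. The number of loci needed for 50% of the family's counts was 14 in each K-562 WT library and 37, 33 and 30 in the KO libraries. In mES cells it was 11, 59 and 70 in WT against 28, 5 and 12 in KO, and the groups overlapped.

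**Figure D1:**
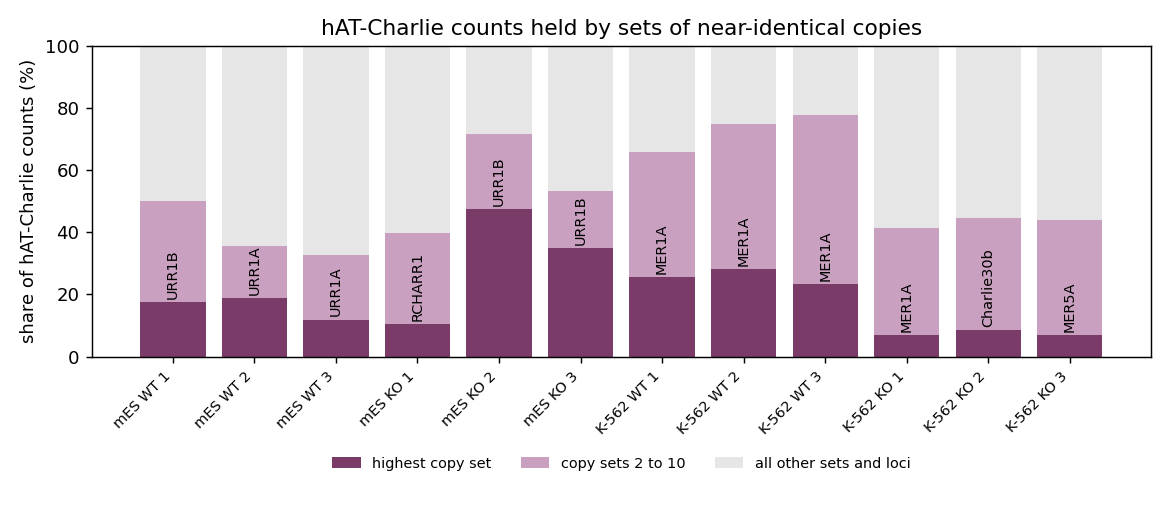
Share of each library's hAT-Charlie counts (%, vertical axis) held by its highest set of near-identical copies (dark, named on the bar), by its sets 2 to 10 (light) and by all other sets and loci (grey), for the 12 libraries. The highest set took 47.5% in mES KO replicate 2 and 23.4% to 28.1% in K-562 WT libraries, but 6.80% to 8.54% in K-562 KO libraries.

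In mES cells hAT-Charlie RNA took a larger share of the repeat counts in every Tet2-KO library than in any WT library. The share was 0.0652%, 0.0570% and 0.0511% in WT replicates 1 to 3 and 0.0865%, 0.209% and 0.106% in KO. In bulk RNA, more cells with such RNA and more of it per cell cannot be told apart. The mean went from 0.0578% ± 0.00709 to 0.134% ± 0.0656 (SD, n = 3 per group), a log2 ratio of 1.21 (two-sided exact permutation p = 0.1, the smallest that 3 against 3 libraries allow). KO replicate 2 stood far above the others, and without it the log2 ratio was 0.74. Loci with at least 90% of their counts in 1 library were next left out of the family and of the total. This gave WT shares of 0.0195%, 0.0179% and 0.0274% and KO shares of 0.0342%, 0.0446% and 0.0295%. The log2 ratio was then 0.74 (exact p = 0.1), and the groups did not overlap.

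In K-562 the family's share overlapped between the genotypes. It was 1.87%, 2.60% and 2.21% in WT and 1.92%, 1.82% and 1.44% in TET2-KO, means of 2.22% ± 0.362 and 1.73% ± 0.254 and a log2 ratio of −0.37 (exact permutation p = 0.2). What remained after loci seen almost only in 1 library were left out, from the family and the total alike, did not overlap. It was 1.78%, 1.87% and 1.51% in WT against 1.05%, 0.743% and 0.739% in KO, which gave a log2 ratio of −1.03 (exact p = 0.1). Also leaving out the 10 highest elements, likewise chosen after seeing the data, gave −0.63 (exact p = 0.1). Leaving out the 33 MER1A copies described further on, a step chosen after seeing the data, turned the log2 ratio of the whole family to 0.17 (exact p = 0.2), and leaving out both kinds of loci gave −0.17 (exact p = 0.5). Another DNA family, hAT-Tip100, held 8.90% to 11.8% of the counts in WT and at least 24.6% in KO, and its part in the hAT-Charlie ratio was not tested. Without the 10 highest elements of the table that ratio was −0.12 (exact p = 0.5), and without alternate contigs it was −0.60 (exact p = 0.1). Without WT replicate 2, the highest library, it was −0.24.

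The log2 ratio was higher in mES cells than in K-562 by 1.58 (two-sided permutation p = 0.01, with genotypes exchanged inside each line in 400 ways). That permutation tests whether genotype made no difference in either line, not whether the lines' changes were equal. Without the 10 highest elements the difference was 1.35 (permutation p = 0.025).

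The family's share of detected loci was compared as well. In K-562 hAT-Charlie made up 1.38%, 1.42% and 1.33% of all detected loci in WT against 1.72%, 1.85% and 1.68% in KO, with no overlap (log2 ratio 0.34, exact permutation p = 0.1). The loci themselves numbered 1352, 1104 and 1011 in WT against 1759, 1610 and 1639 in KO. Total counts were also higher in KO, and the part of depth in the locus numbers was not tested. Requiring a count of at least 1 gave a log2 ratio of 0.38. In mES cells the share of detected loci was 0.504%, 0.617% and 0.641% in WT against 0.591%, 0.741% and 0.667% in KO, and the groups overlapped (log2 ratio 0.18, exact p = 0.4).

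Subfamilies were compared next, by the edgeR quasi-likelihood test on summed counts. In mES cells 21 hAT-Charlie subfamilies passed the filter on low counts and none was called at an adjusted p under 0.05, against 2.01% of all 546 subfamilies tested. At an unadjusted p under 0.05 there were 3 of 21, against a background of 15.9%. In K-562, 46 passed the filter and none was called, against 1.05% of 573, and 7 had an unadjusted p under 0.05, against 13.8%. The shares at the unadjusted threshold lay near the background. The DESeq2 Wald test called 2 of 21 in mES cells (URR1B and Cheshire), against 10.3% of all subfamilies tested. In K-562 it called 5 of 46 (MER1A, MER5B, Charlie15b, MER102c and MER112), against 10.6%, so these shares too lay near the background. Groups did not overlap for 6 of 21 in mES cells (background 21.8%) and for 10 of 46 in K-562 (background 16.9%).

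The signs of the fitted changes are given as a description. In mES cells 17 of 21 hAT-Charlie changes were above 0, with a median of 0.81, against 303 of all 546 subfamilies, with a median of 0.11. Without KO replicate 1 the hAT-Charlie median was 0.43. The 8 Charlie subfamilies had a median of 0.74, the 8 MER subfamilies 0.85, all 8 of them positive, and the URR subfamilies had 1 positive and 1 negative value. In K-562, 30 of 46 were above 0, with a median of 0.49, against 291 of all 573, with a median of 0.03. That hAT-Charlie median was 0.10 without KO replicate 2 and 0.18 without the top locus of each subfamily. Here 17 of 23 Charlie and 13 of 22 MER subfamilies were positive, with medians of 0.65 and 0.49. With loci counted almost only in 1 library left out, 10 hAT-Charlie subfamilies could be tested in mES cells, with a median of 0.44, and 26 in K-562, with a median of 0.01.

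**Figure D2:**
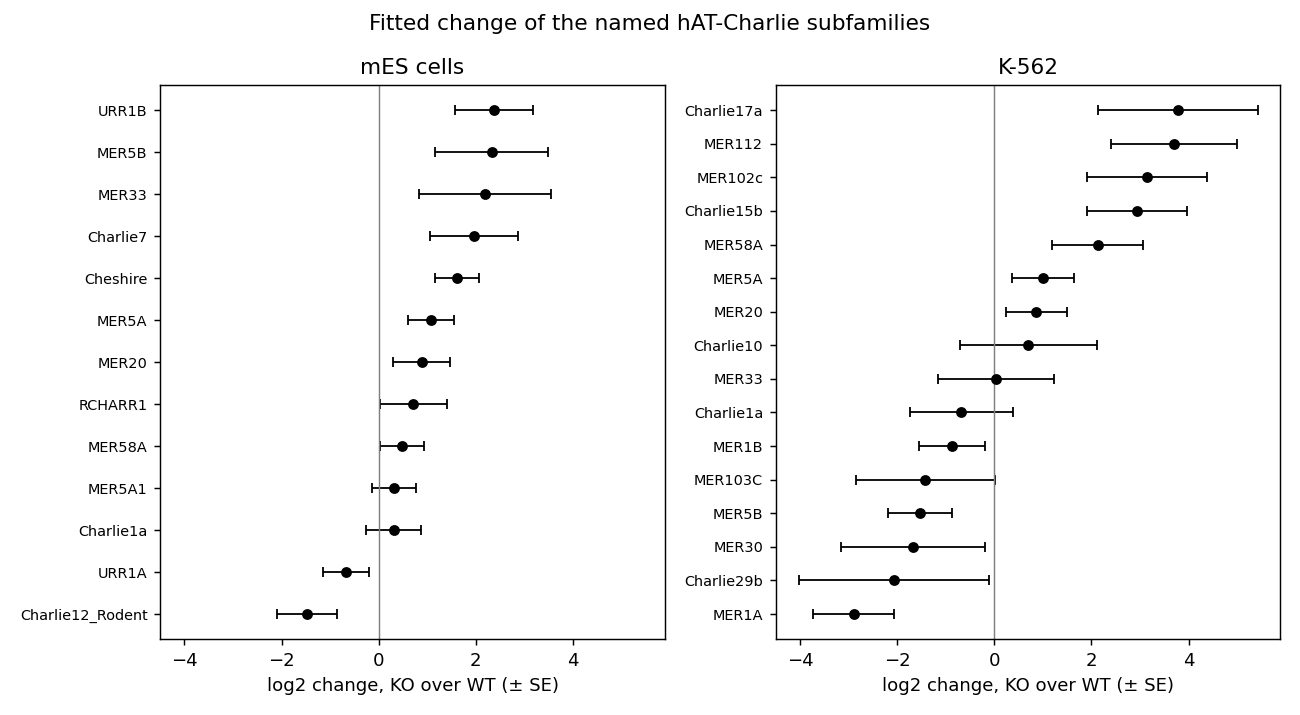
Fitted log2 change, KO over WT, of the named hAT-Charlie subfamilies (horizontal axis, points with SE bars) in mES cells and K-562, ordered by size. Values run from −1.47 to 2.37 in mES cells and from −2.89 to 3.77 in K-562, and none had an adjusted p under 0.05 in edgeR.

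URR1B and URR1A, short rodent elements without a transposase gene, held the most hAT-Charlie counts in mES cells. URR1B had 184, 64.6 and 55.4 CPM (counts scaled to a common library size after TMM normalization) in WT replicates 1 to 3 and 163, 1018 and 407 in KO. KO replicates 2 and 3 were the highest, and KO replicate 1 lay below WT replicate 1. The fitted log2 change was 2.37 ± 0.80 (SE, adjusted p = 0.238). Its largest sets were each seen almost only in 1 library. The 4 identical copies of 91 bases on chromosome 4, 2 of them in introns of Gm26573 and the others near Zfp534 and Zfp987, held 1517 counts in KO replicate 2 and none in any other library. A set of 5 copies of 230 bases on chromosome 8 held 746 counts in KO replicate 3 and none elsewhere. With loci of this kind left out, the log2 change was 0.25.

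URR1A was lower in each KO library than in each WT library. Its CPM were 184, 181 and 143 in WT against 81.1, 127 and 111 in KO (log2 change −0.67 ± 0.47, adjusted p = 0.497). Here too each WT library had its own leading locus. A 342-base copy at chr15:8814252-8814593 held 251 counts in WT replicate 1, a pair of copies at the histocompatibility genes H2-T10 and H2-T22 held 342 in WT replicate 2, and a copy at chr16:58695561-58696000 in an intron of Cpox, a haem synthesis gene, held 202 in WT replicate 3.

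RCHARR1, a rodent Charlie relative, had 103, 48.3 and 34.6 CPM in WT against 128, 50.6 and 127 in KO, with overlap (log2 change 0.71 ± 0.69, adjusted p = 0.644). A single intergenic locus, chr16:13750446-13752227, held 32.9% of its counts. That locus had counts of 25.6, 1.0 and 0 in WT against 155, 4.2 and 163 in KO. Its own fit gave 3.89 ± 1.72 (adjusted p = 0.255), and without the top locus the subfamily's log2 change was −0.28.

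Charlie12_Rodent ran the other way. It had 12.7, 26.0 and 48.4 CPM in WT against 11.2, 12.3 and 6.39 in KO, so every KO library was below every WT library (log2 change −1.47 ± 0.62, adjusted p = 0.302). Its locus at chr14:56134119-56138786, near the granzyme gene Gzmd, held 53.8% of its counts, with 5.03, 50.7 and 98.2 in WT against 0.200, 9.20 and 0 in KO (log2 change −2.41 ± 1.32, adjusted p = 0.345). The subfamily's log2 change was −0.49 without its top locus and −0.91 without WT replicate 3.

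Among the ancient mammalian MER elements of the mouse, MER5A and MER20 had no overlap. MER5A had 12.7, 16.0 and 17.1 CPM in WT against 29.6, 38.3 and 32.0 in KO (log2 change 1.08 ± 0.48, adjusted p = 0.31). No locus held over 1.99% of its counts, the lowest top-locus share of the 13 mES subfamilies named. Loci with at least 90% of their counts in 1 library held 81.4% of MER5A counts, and without them its log2 change was 0.94. MER20, known as a source of enhancers in the uterus of placental mammals, had 14.5, 23.6 and 21.5 CPM in WT against 58.7, 29.0 and 25.1 in KO (log2 change 0.89 ± 0.58, adjusted p = 0.478). It was 0.43 without KO replicate 1 and 0.42 without loci seen almost only in 1 library. MER5A1 and MER58A overlapped, with log2 changes of 0.31 and 0.48.

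MER33 and MER5B were high in KO replicate 2 alone. MER33 had 249 CPM there against 7.97 to 37.0 in the other libraries, and MER5B had 194 against 10.0 to 19.2. Their log2 changes of 2.20 ± 1.36 and 2.32 ± 1.15 became −0.73 and −0.03 without that library. Of all MER33 counts 68.8% lay in 3 copies on chromosome 8, and 1 MER5B copy of 55 bases in an intron of Cgn, the gene of the junction protein cingulin, held 149 counts. Charlie7 was likewise carried by 1 library, KO replicate 1, with 52.6 CPM against at most 8.64 elsewhere. Cheshire, a Charlie relative, was scarce but did not overlap, with 3.75, 3.33 and 1.34 CPM in WT against 10.1, 6.17 and 14.6 in KO (log2 change 1.61 ± 0.46, adjusted p = 0.171). Its top locus, in an intron of Ube2r2, held 20.7 counts in KO replicate 3 and none elsewhere. Without that locus the Cheshire log2 change was 1.11. Loci with at least 90% of their counts in 1 library held 74.2% of Cheshire counts. Charlie1a overlapped, with a log2 change of 0.31.

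**Figure D3:**
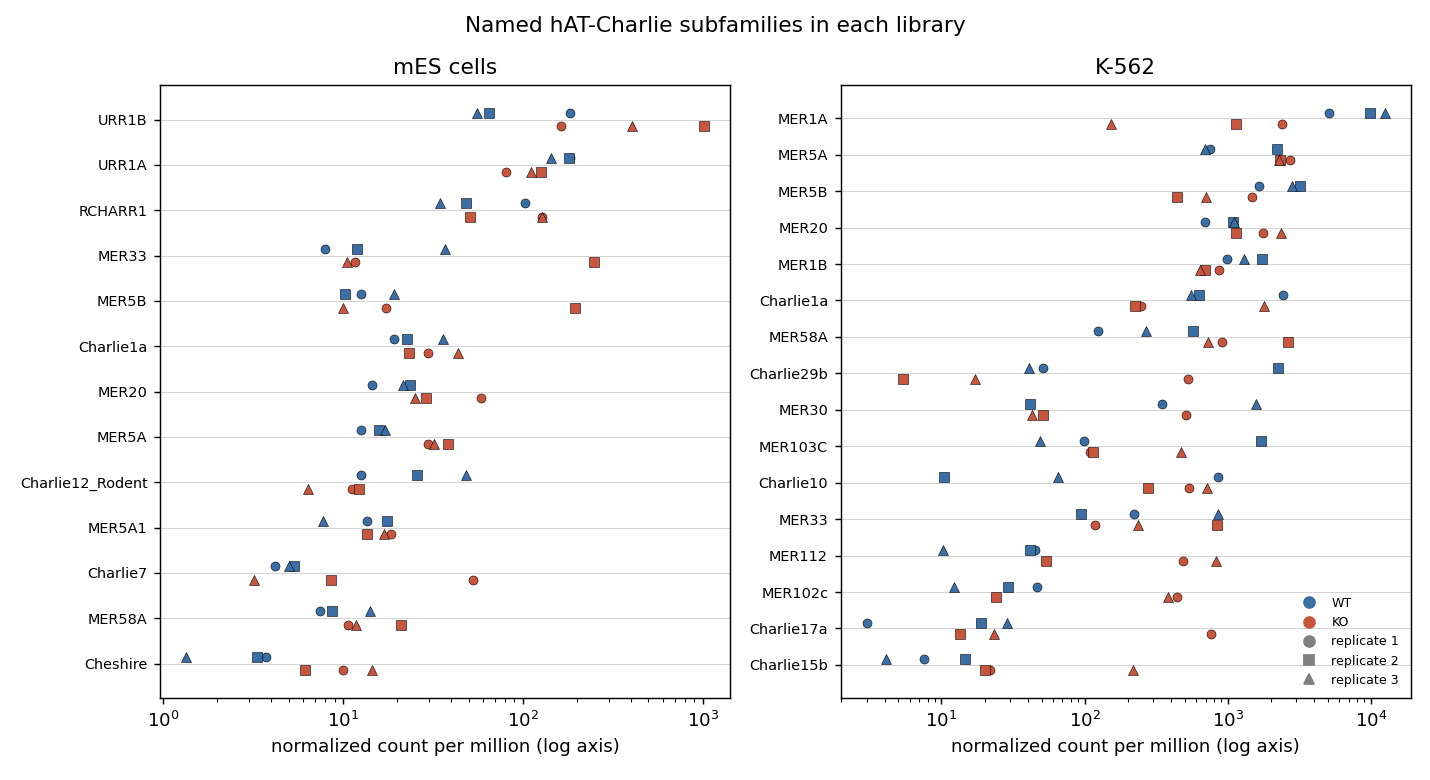
Normalized CPM (horizontal log axes) of each named hAT-Charlie subfamily in every library of mES cells and K-562, WT in blue and KO in red, with shapes for replicate numbers. K-562 MER1A lies between 5053 and 12454 in WT and between 154 and 2397 in KO, and several other subfamilies are high in 1 library only.

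MER1A, a short element related to the Charlie transposons, was the most abundant member in K-562 and had the lowest p-value. It had 5053, 9870 and 12454 CPM in WT replicates 1 to 3 and 2397, 1132 and 154 in KO. The groups did not overlap, and the highest KO value was below 50% of the lowest WT value. The fitted log2 change was −2.89 ± 0.83 (adjusted p = 0.188), and over its alternatives it lay between −3.76 and −2.37, with adjusted p from 0.0996 to 0.439 in edgeR and 0.0277 in the DESeq2 Wald test. Per megabase of annotated sequence it was also the densest of the 16 K-562 subfamilies named, at a mean of 3272 CPM per megabase, followed by Charlie29b at 1174.

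MER1A counts came from few copies of its 3067 loci. The first set had 13 copies of 432 bases that agreed at 98.8% or more of their bases and carried 62.2% of the subfamily's counts. Its summed counts were 3108, 3640 and 2885 in WT against 1077, 9.03 and 0.500 in KO. As shares of the library they were 0.478%, 0.731% and 0.515% against 0.131%, 0.0013% and 0.0001%. KO replicates 2 and 3 held almost none, and KO replicate 1 lay between them and WT. The second set, 20 copies of 418 to 420 bases, had counts of 171, 873 and 1729 in WT against 418, 0 and 62.9 in KO, with overlap. The remaining MER1A loci also overlapped, with counts of 85.7, 227 and 1466 in WT against 580, 833 and 62.2 in KO. Another set of 3 copies, inside POTEG, POTEH and POTEM but outside their exons, held 1429 of its 1431 counts in WT replicate 3.

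Of the 13 copies in the first set, 8 overlapped exons of long noncoding RNA genes. The counts assigned to these copies differed. Reads that match several copies equally cannot be placed on a single copy, so single-copy values are uncertain. In hg38 the copy at chr11:138544-138975 in LINC01001 had 417, 439 and 299 counts in WT against 47.8, 0.500 and 0 in KO. The copy at chr16:90158569-90159000 in FAM157C had 473, 361 and 195 in WT against 148, 0.200 and 0 in KO, and the copy at chr19:208824-209255 in LINC01002 had 170, 190 and 301 against 124, 0 and 0. In these 3 copies every WT value was above every KO value. In other copies the highest count, not scaled to depth, was in KO replicate 1. That library's total over DNA, LINE, LTR and SINE elements was 821950, against at most 649905 in WT. The copy at chr3:198210882-198211313 had 180, 122 and 1.0 in WT against 219, 0 and 0 in KO (log2 change −0.20), and the copy at chr5:181316467-181316898 had 107, 65.8 and 99.6 against 147, 5.53 and 0 (log2 change −0.47). The copy at chr17:76311-76742 in LINC02887 had 91.4% of its counts in WT replicate 2. Over both sets, 20 copies lay in 8 such genes, and all 20 were on the gene's own strand. The copies of a set are near-identical, so these are not 20 independent observations.

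Other repeats of the same host genes overlapped between the genotypes. The 228 elements of other families inside the 8 genes held 0.623%, 0.139% and 0.304% of the library in WT against 0.556%, 0.509% and 0.461% in KO. The 20 copies of both MER1A sets inside these genes held 0.488%, 0.826% and 0.679% in WT against 0.159%, 0.0012% and 0.0067% in KO. The genes and copies were chosen after their values were seen, so these values are a description.

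MER5B and MER1B, also short elements without a transposase gene, were likewise lower in every KO library. MER5B had 1651, 3209 and 2808 CPM in WT against 1484, 444 and 707 in KO (log2 change −1.54 ± 0.66, adjusted p = 0.352). Loci seen almost only in 1 library held 94.1% of its counts. The largest were 3 identical copies on chromosome 22 inside HIC2, PI4KAP1 and PI4KAP2, with 1431 counts in WT replicate 2 and 0.990 in KO replicate 2, and 2 copies on chromosome 16, with 1065 counts in WT replicate 3. MER1B had 985, 1741 and 1299 CPM in WT against 874, 691 and 636 in KO (log2 change −0.87 ± 0.68, adjusted p = 0.573). Its largest set was 15 copies of 37 bases at the mucin locus transcript MUC20-OT1.

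MER5A, MER20 and MER58A were higher in every KO library of K-562. MER5A had 747, 2193 and 699 CPM in WT against 2713, 2323 and 2264 in KO (log2 change 1.00 ± 0.63, adjusted p = 0.499), with WT replicate 2 close to the KO values. Without loci seen almost only in 1 library its log2 change was −0.54. MER20 had 689, 1089 and 1106 CPM in WT against 1760, 1149 and 2340 in KO (log2 change 0.86 ± 0.63, adjusted p = 0.55), which became 1.66 without loci seen almost only in 1 library and 0.46 without alternate contigs. A copy of 107 bases in an exon of LENG8 and its 2 copies on alternate contigs had summed counts of 115, 0 and 0 in WT against 772, 0 and 269 in KO. MER58A had 125, 573 and 268 CPM in WT against 917, 2619 and 725 in KO (log2 change 2.13 ± 0.94, adjusted p = 0.357), and its largest set, on chromosome 16, was counted in KO replicates 1 and 2 only, at 140 and 978. Without loci seen almost only in 1 library the MER58A log2 change was 4.40 (edgeR adjusted p = 0.061), and without KO replicate 2 it was 1.34.

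Scarcer subfamilies with low unadjusted p-values had most of their counts in 1 or 2 KO libraries. MER112 had 45.1, 41.7 and 10.2 CPM in WT against 484, 53.8 and 829 in KO (log2 change 3.70 ± 1.29, adjusted p = 0.281). A set of 4 copies in the SRGAP2 gene family on chromosome 1 held 637 of its counts in KO replicate 3. MER102c had 46.6, 29.2 and 12.3 CPM in WT against 440, 24.2 and 380 in KO. Charlie15b had 7.51, 14.6 and 4.10 CPM in WT against 21.9, 20.2 and 217 in KO, without overlap. Its log2 change of 2.94 was 1.04 without KO replicate 3. Charlie17a had 761 CPM in KO replicate 1 and at most 28.7 elsewhere, and 97.3% of its counts lay in loci of 1 library.

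Other abundant K-562 subfamilies overlapped between the genotypes. Charlie10 had 859, 10.4 and 65.5 CPM in WT against 533, 276 and 712 in KO (log2 change 0.70 ± 1.41, adjusted p = 0.827). Leaving out WT replicate 1 gave 3.65, and leaving out WT replicate 3 gave 0.21. A 2690-base locus at chr6:28571601-28574290, which overlaps an exon of SCAND3, and its copy on an alternate contig held 95.9% of these counts. Charlie1a, Charlie29b, MER30 and MER103C each turned sign when their highest library was left out. Their log2 changes of −0.68, −2.07, −1.67 and −1.42 became 0.37 without WT replicate 1, 2.00 without WT replicate 2, 0.05 without WT replicate 3 and 1.63 without WT replicate 2. MER33 had a log2 change of 0.03 ± 1.19 with no fixed sign.

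Single loci gave no call either. In mES cells 5 hAT-Charlie loci passed the filter and none was called by edgeR or by DESeq2, against 0.0473% of 19030 loci in edgeR and 11.3% in the DESeq2 Wald test. None had an unadjusted p under 0.05, against 21.0%. In K-562, 31 passed and none was called by edgeR, against 0.0959% of 3127, and 1 had an unadjusted p under 0.05, against 7.48%. This was a Charlie2b locus at chr5:54267470-54270403 in an intron of ARL15, a gene of a small GTPase. It had counts of 15.4, 53.6 and 15.0 in WT against 0.700, 1.05 and 0 in KO (log2 change −3.42, adjusted p = 0.202). All WT values were above all KO values, and the DESeq2 Wald test called this locus, 1 of 31, against 5.56% of the 3127 loci.

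Loci counted in all 6 libraries were longer than the members at large. In mES cells the 19 had a median length of 1638 bases, against 171 over all members, and 11 lay in introns and none in exons. The MER33 locus at chr1:135484375-135484793 in Nav1, a gene of neuron navigation, was one, with counts of 5.05, 10.8 and 34.2 in WT against 14.3, 9.0 and 9.73 in KO (log2 change 0.43). In K-562 the 47 had a median length of 700 bases, against 165.

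Counted loci sat in genes more often than members did. In mES cells 61.5% of counted loci were in introns and 5.41% overlapped exons, against 51.0% and 3.38% of all members. In K-562 these shares were 63.6% and 9.32%, against 60.2% and 4.12%. By counts, exonic loci of K-562 held 37.9%, 47.8% and 33.0% of the hAT-Charlie total in WT against 19.5%, 7.51% and 9.35% in KO. Without both MER1A sets the exonic share was 15.0%, 23.8% and 5.11% in WT against 13.3%, 7.45% and 8.88% in KO, and the groups overlapped. Median GC content was 41.6% in counted loci against 40.0% in all members in mES cells, and 42.8% against 40.9% in K-562. Of 29 mouse and 20 human members over annotated microRNA genes, 1 in each line had counts, with 0.1 and 1.0 in all.

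In both lines 16 hAT-Charlie subfamilies were tested. Of these, 15 had positive log2 changes in mES cells and 10 in K-562. In all, 9 were positive in both, 6 were positive in mES cells and negative in K-562, 1 was the reverse and none was negative in both. The lines share no libraries. Over all subfamilies tested in a line, 303 of 546 in mES cells and 291 of 573 in K-562 had positive changes. MER5A, at 1.08 in mES cells and 1.00 in K-562, and MER20, at 0.89 and 0.86, did not overlap between genotypes in either line. Their dependence on libraries and loci is given above. Over all subfamilies tested, 21.8% in mES cells and 16.9% in K-562 did not overlap. Shares over all subfamilies tested in both lines were not computed. MER5B, at 2.32 and −1.54, and Cheshire, at 1.61 and −2.38, had opposite signs, each with overlap in 1 line. None had opposite signs without overlap in both lines, and the differences were not tested.

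Related DNA families had smaller medians in mES cells, as descriptions beside the hAT-Charlie median of 0.81. The 5 hAT-Tip100 subfamilies had a median of 0.24, the 7 TcMar-Tigger subfamilies 0.28, the 2 hAT-Blackjack subfamilies 0.49 and the single TcMar-Mariner subfamily 0.64. The hAT-Tip100 share of repeat counts was, like that of hAT-Charlie, higher in every Tet2-KO library than in any WT library. It was 0.0283%, 0.0226% and 0.0150% in WT replicates 1 to 3 against 0.0359%, 0.0456% and 0.0404% in KO. The shares of TcMar-Tigger, hAT-Blackjack and TcMar-Mariner overlapped between the genotypes. In K-562, beside 0.49 for hAT-Charlie, the medians were −0.01 over 19 hAT-Tip100, 0.09 over 38 TcMar-Tigger, 0.32 over 6 hAT-Blackjack and 1.23 over 4 TcMar-Mariner subfamilies.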

How the data were processed

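Libraries were m5C-precipitated caRNA of mES cells and K-562, WT and KO, 3 per group. Per the study's methods and the submitters' processing notes, the authors used Trimmomatic 0.39 for trimming, HISAT2 2.1.0 for alignment to mm10 or hg38, Picard for duplicate removal and featureCounts for counting over repeat elements, on an annotation that joins fragments of an element. The deposited values are estimated counts per element, fractional and not scaled to depth. The options that made them fractional and any use of strand are not given in the sources used here. Input and spike-in libraries were not used here.

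Counts were summed per subfamily, rounded, and compared with the edgeR 4.0.16 quasi-likelihood test (filterByExpr, TMM, prior count 2, Benjamini–Hochberg over all subfamilies or loci of classes DNA, LINE, LTR and SINE, call at an adjusted p under 0.05). SE was taken as |log2 change|/√F. Shares were compared by exact permutation over the 20 assignments of 6 libraries. Normalized CPM use TMM library sizes. Copies of a subfamily with at least 10 summed counts were aligned end to end with edlib 1.3.9.post1 and joined at 95% identity. Genes came from GENCODE M21 and 44, releases other than the authors' own, and a locus touching any exon counted as exonic. All counted loci lay on reference contigs and none passed a contig's end.

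Named by rule were called subfamilies, those with an unadjusted p under 0.05 and the 12 with the highest mean CPM in each line (with both lines' values where tested in both), and the loci called, up to 8 with an unadjusted p under 0.05, the 6 with the highest mean count and the top locus of each named subfamily. Copy sets, host genes and other loci given are descriptions, chosen after their values were seen. Some sequences and loci are not reported here. The members and lists were chosen with earlier results of these data known. Alternatives were DESeq2 1.42.0 size factors and Wald test, library totals, a filter of 10 counts, every class, removal of the 10 highest elements, of top loci, of loci with at least 90% of counts in 1 library and of alternate contigs and MER1A sets (the contigs, the MER1A sets and, for subfamilies, the 1-library loci chosen after seeing the data), a replicate block and leaving out each library. The fit was tested on simulated data, where most planted changes were not called in either line, for subfamilies or loci, so the lack of a call does not show that values did not differ. Analyses ran in R 4.3.3 and in Python 3.11.15 with pandas 2.3.3, NumPy 2.4.6 and matplotlib 3.10.9.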

Additional observations from a re-analysis of the deposited data

Results flagged for a closer look

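The log2 ratio of hAT-Charlie's share of counts, KO over WT, differed between the cell lines. It was 1.21 in mES cells and −0.37 in K-562, a difference of 1.58 (permutation over 400 assignments, p = 0.01). Exchanging genotypes inside each line tests for no genotype difference in either line, and equal changes in both lines were not tested. Without the top hAT-Charlie locus of each line it was 1.37 (permutation p = 0.02).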

How the results depend on the processing

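The share in mES cells kept its sign under every alternative run, at 0.74 to 1.71, and at 0.74 to 1.45 when each library was left out. The K-562 share turned to 0.17 without the MER1A copy sets and otherwise lay between −1.03 and −0.12, or between −0.48 and −0.24 when each library was left out. The share of detected loci in K-562 stayed at 0.30 to 0.38. In mES cells it stayed at 0.08 to 0.26. No subfamily or locus was called by edgeR under any alternative, and the DESeq2 Wald test called 2 subfamilies in mES cells, 5 in K-562 and 1 K-562 locus. Among all mES subfamilies the calls went from 11 to 56 with that test, 7 with DESeq2 size factors or without the 10 highest elements, 5 with library totals, 0 with the replicate block and 5 to 7 with a library left out. In K-562 they went from 6 to 61 with the Wald test, 2 without loci seen almost only in 1 library and 0 to 3 with a library left out. Calls over all mES loci went from 9 to 2158 with the Wald test, 1 with a filter of 10 counts and 0 with the block or any library left out, and in K-562 from 3 to 174 with the Wald test. Library totals moved the median of all subfamilies from 0.11 to 0.29 in mES cells and from 0.03 to 0.13 in K-562, beside hAT-Charlie medians of 0.97 and 0.58.

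Replicate numbers did not pair the samples: same-number correlations of WT and KO deviations were −0.09, −0.04 and −0.05 in mES cells and −0.06, 0.04 and −0.10 in K-562. With the replicate block 0 hAT-Charlie subfamilies and 0 loci were called in either line, and MER1A was at −3.40.

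Signs of named subfamilies turned as follows, and the cause was not tested. RCHARR1 in mES cells was −0.28 without top loci. With each library left out, mES MER33 lay between −0.73 (without KO replicate 2) and 3.04, and mES MER5B between −0.027 (without KO replicate 2) and 2.83. In K-562, Charlie1a lay between −2.33 and 0.37 (without WT replicate 1), Charlie29b between −5.75 and 2.00 (without WT replicate 2), MER30 between −3.68 and 0.051 (without WT replicate 3) and MER103C between −2.44 and 1.63 (without WT replicate 2). Without loci seen almost only in 1 library, K-562 MER5A was −0.54, MER103C 0.10 and MER33 −2.45. K-562 MER33, at 0.03, was −0.067 with the DESeq2 Wald test, −0.066 with DESeq2 size factors, −0.065 with a filter of 10 counts, −0.10 with the block, −0.23 without alternate contigs, −0.36 without top loci, and −1.15 (KO replicate 2), −0.24 (WT replicate 1), −0.41 (WT replicate 2) and up to 1.33 (WT replicate 3) when a library was left out. The median counted locus held 1.0 count in mES cells and 1.2 in K-562.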
